A study of Mus musculus with 45 samples.

Results

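The synaptic vesicle and release machinery examined here was a set of 41 genes, listed by symbol, out of 49922 genes with a symbol of their own in the tables. All 41 were found in both tables, and none was dropped for a repeated symbol. By role, 4 encode neuronal SNAREs (Snap25, Stx1a, Vamp1, Vamp2), 9 encode SNAREs and a SNARE partner of membrane traffic in most cell types (Snap23, Snap29, Vamp3, Vamp4, Vamp8, Stx4a, Stx6, Stx7, Stxbp3), 4 take SNARE complexes apart (Nsf, Napa, Napb, Napg), and 8 are synaptotagmins (Syt1, Syt2, Syt3, Syt4, Syt5, Syt7, Syt11, Syt13). The others are 2 complexins (Cplx1, Cplx2), 7 proteins of the vesicle itself (Syp, Syn1, Syn2, Syn3, Sv2a, Sv2b, Rab3a), 5 active-zone proteins (Rims1, Rims2, Unc13a, Bsn, Pclo) and 2 transporters that load transmitter into vesicles (Slc17a7, Slc32a1).

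Transmitter release is driven by SNARE proteins, which zip together across the vesicle and the plasma membrane and pull them into fusion. Synaptotagmins sense the calcium that triggers release, complexins hold the assembled SNAREs ready, active-zone scaffolds dock and prime vesicles beside calcium channels, and NSF with its SNAP adaptors unwinds spent complexes. In the dentate gyrus (DG) this machinery is known above all from mature granule cells and interneurons, whereas membrane traffic in dividing cells relies on other members of the same SNARE families.

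RNA was sequenced from neural stem cells (NSCs) and intermediate progenitor cells (IPCs) sorted from the DG of Nestin-GFP mice on the C57Bl6J background, 6 to 9 weeks old, and from whole DG of other mice. Nestin-GFP mice express GFP under regulatory sequence of the Nestin gene, and live cells negative for CD31, CD45, O1 and O4 were taken as NSCs when GFP+ and GLAST+ and as IPCs when GFP+ and GLAST-. The untreated experiment held NSCs and IPCs of the same 3 mice, each as 3 technical replicates of 300 cells with 60 cell equivalents carried into cDNA, and whole DG of 3 mice. The injury experiment compared lateral fluid percussion injury (TBI) with sham surgery 4 h later, in NSCs of 3 TBI and 2 sham mice, IPCs of 3 TBI and 3 sham mice, and whole DG of 3 TBI and 3 sham mice. Technical replicates were averaged, so that the mouse was the replicate throughout. The sources differ on whole DG. The labels give the SMART-Seq HT kit for all libraries and Nestin-GFP mice for all samples, whereas the study's text gives a directional bulk kit for whole DG and wild-type mice for the untreated DG. Dissociation and sorting, and, where the study's text holds, kit, input and genotype, cannot be told apart from the cell population in comparisons of sorted cells with DG.

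Library depth ranged from 9933254 to 18369483 gene-assigned reads in untreated sorted cells, 14492246 to 14837110 in untreated whole DG, 9604877 to 21598519 in injury sorted cells and 9292264 to 13326754 in injury whole DG. Values below are normalized counts, the authors' read counts divided by a size factor. One sorted library stood apart: technical replicate 2 of IPC mouse 2 had 6110 genes passing the authors' detection filter (CLEAR), against 9865 to 11520 in the other untreated sorted libraries. Of the lists of cell type markers, all 8 mature neuron markers were lower in NSCs and in IPCs than in DG tissue in untreated, sham and TBI mice, with summed levels of 4244.95 to 6089 in untreated NSCs and 7035 to 9753 in untreated IPCs against 115314 to 138186 in untreated DG. None of the 8 was at 0 in a sorted group. The sorted cells also carried endothelial markers (5 of 5 higher than in DG in both untreated populations, none at 0), summing to 42751 to 53559 in untreated NSCs, 11862 to 25719 in untreated IPCs and 615 to 1068 in untreated DG, although CD31+ cells had been gated out. In sham mice 4 of the 5 were called higher than in DG in NSCs and 3 in IPCs, and in TBI mice 4 in each. Pericyte markers summed to 11125 to 13386 in untreated NSCs and 24073 to 25527 in untreated IPCs against 670 to 876 in untreated DG, with 2 of 3 called higher in both untreated populations, 3 of 3 in all sham and TBI sorted populations, and none at 0. The part of these lists in the results below was not tested.

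In untreated mice, most of the release machinery was lower in sorted NSCs and IPCs than in whole DG, whereas a small group of broadly used SNARE genes was higher. Of 41 members, 4 were higher and 33 lower in NSCs than in DG, against a background of 16.1% of all tested genes higher and 33.3% lower. In IPCs, 3 were higher and 32 lower than in DG, against 15% and 33.9% of all genes. The median log2 fold change of the members was -3.40 in NSCs and -3.21 in IPCs, beside -0.64 and -0.68 over all genes tested. Calls are at an adjusted p under 0.05 (limma on log2(normalized count + 1), Benjamini-Hochberg over all genes with a mean of at least 10), and fold changes on this scale understate the change of low genes. Fewer cells of a type and less RNA per cell cannot be told apart in these bulk libraries. When every library was rescaled to one total, which moved the median of all genes to 0.04 in NSCs and 0.00 in IPCs, NSCs had 6 members higher and 30 lower, and IPCs 6 and 29. Over all genes rescaling gave 4918 higher and 4077 lower in NSCs (2840 and 5877 as deposited), while IPCs gave 4890 and 4005 (2647 and 5986 as deposited).

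Together the 41 genes took a mean of 0.254% of gene-assigned reads in untreated NSCs (0.241% to 0.269% over 3 mice) and 0.289% in untreated IPCs (0.266% to 0.303%), against 1.77% in untreated DG (1.75% to 1.81%). Elsewhere it was 0.293% in TBI NSCs, 0.283% in TBI IPCs, 0.276% in sham NSCs and 0.262% in sham IPCs, while whole DG gave 1.66% after TBI and 1.80% after sham surgery. Each sorted group was below each DG group, with no overlap between mice. On the CPM scale (reads scaled to a common total of gene-assigned reads), the summed level of the broadly used SNAREs was higher in untreated sorted cells. Of the 9, 4 were called higher and 3 lower in NSCs, and 3 higher and 2 lower in IPCs. The sum stood at 866 ± 28 CPM in untreated NSCs and 697 ± 61 in untreated IPCs. It was 564 ± 51 in untreated DG (SD, n = 3 each). That of the neuronal SNAREs was 249 ± 29 and 359 ± 24 against 4673 ± 356. The direction for the broadly used SNAREs depends on the scale. On normalized counts, used for the calls, their mean sum was lower in both untreated sorted groups than in DG. NSC and DG mice overlapped there. Library totals of normalized counts were 10346330 to 10982464 in untreated NSCs and 10250319 to 12211579 in untreated IPCs. In untreated DG these totals were 17380917 to 17600588.

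Across the 6 comparisons of sorted cells with whole DG (NSC or IPC, in untreated, sham and TBI mice), 23 members were lower in all 6 and 3 were higher in all 6. The 3 were Snap23, Vamp3 and Vamp8. The shares of all tested genes that were lower, or higher, in all 6 are not given here, so neither count can be set against a background. Another 10 were called in a single direction in 1 to 5 of the comparisons, 2 (Syt11 and Syn3) were called in both directions, and 3 (Stx4a, Stx7, Syt2) in none. In sham mice 5 members were higher and 29 lower in NSCs than in DG (background 17.3% and 25.2%), and 5 were higher and 28 lower in IPCs (18.9% and 29.2%). In TBI mice 6 were higher and 30 lower in NSCs (19.7% and 26.1%), and 5 were higher and 28 lower in IPCs (19.8% and 30.1%). The NSC and IPC comparisons of a condition share their DG samples.

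**Figure D1:**
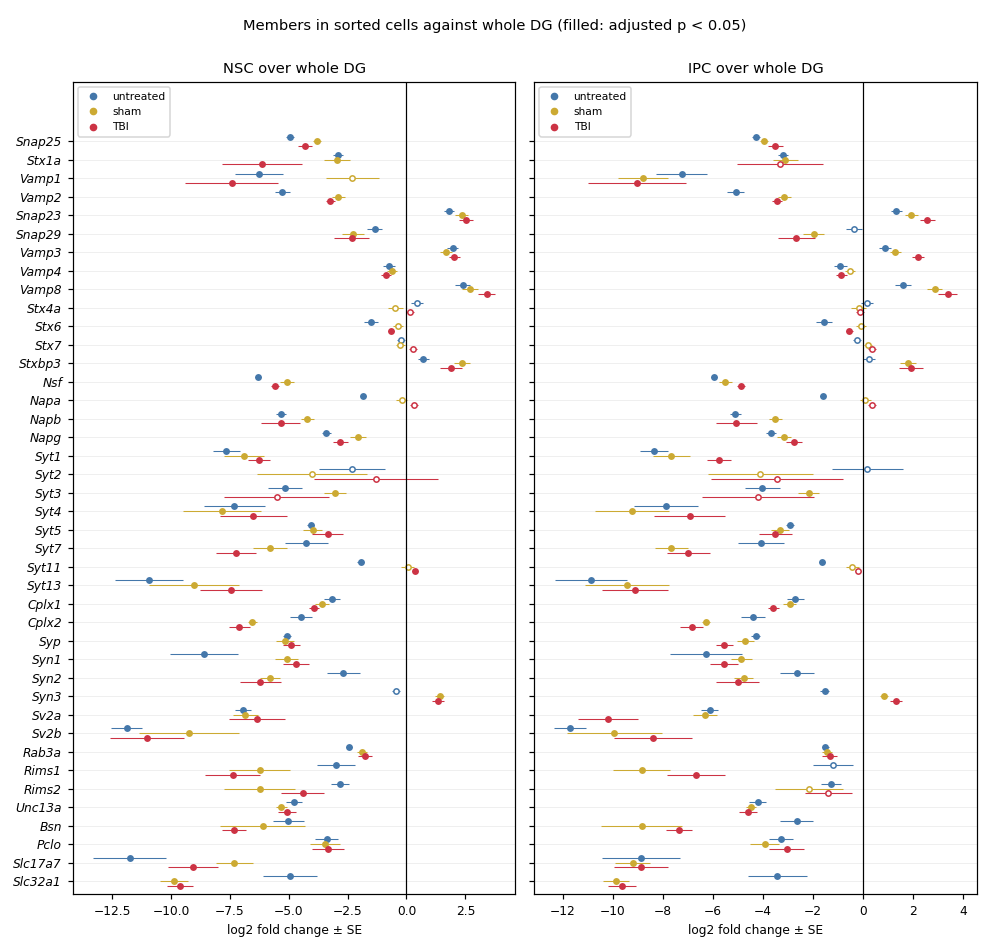
Log2 fold change of each member in NSCs and in IPCs over whole DG in untreated, sham and TBI mice, with error bars of 1 SE and filled symbols for an adjusted p under 0.05. Most members lie left of 0 in every condition; Snap23, Vamp3 and Vamp8 lie right of 0 in all 6 comparisons.

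Promoter sequence was taken from RefSeq (GRCm38.p6) for 31 of the 41 members, and 3 stretches are shown. Syn1, lower in all 6 comparisons, was chosen for its motif match, and Snap23 and Vamp8 because they were higher in all 6. Each starts 250 bases before the RefSeq start site and ends where the annotated gene begins. Capitals in the Syn1 stretch mark an RE1-like element, the kind of element known to bind the repressor REST, and a cAMP response element (TGACGTCA). No searched motif was found in the other stretches, so they hold no capitals.
Syn1, chrX:20921005-20921168, minus strand: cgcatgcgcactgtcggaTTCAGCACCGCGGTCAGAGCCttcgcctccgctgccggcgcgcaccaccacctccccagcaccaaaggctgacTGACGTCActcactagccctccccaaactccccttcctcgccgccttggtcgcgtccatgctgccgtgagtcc
Snap23, chr2:120567421-120567670, plus strand: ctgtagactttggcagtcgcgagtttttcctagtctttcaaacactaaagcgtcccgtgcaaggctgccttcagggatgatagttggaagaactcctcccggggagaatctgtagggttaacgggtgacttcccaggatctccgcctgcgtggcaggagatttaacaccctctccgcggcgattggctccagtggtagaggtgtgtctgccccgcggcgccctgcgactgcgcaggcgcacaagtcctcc
Vamp8, chr6:72390704-72390917, minus strand: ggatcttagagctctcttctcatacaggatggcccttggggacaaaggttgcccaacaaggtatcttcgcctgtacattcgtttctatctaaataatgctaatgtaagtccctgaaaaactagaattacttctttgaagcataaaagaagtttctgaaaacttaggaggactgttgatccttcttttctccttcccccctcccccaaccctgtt

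The RE1 search used TTCAGCACC, any 2 bases, GGACAG, any base and GCC on both strands of the 250 bases before each start, and asked for at least 15 of the 18 fixed bases. Syn1 matched 17 of 18 and was the only member over that minimum, which 25 of 32851 promoters (0.0761%) reached. TTCAGCACC alone was found in 0.301% of all promoters and, among the members, in Syn1; GGACAGC was found in 5.28% and in no member. TGACGTCA occurred in 1.55% of all promoters and in Syn1 and Stxbp3, GGGGCGGGG in 10.4% and in 8 members (Rab3a, Rims1, Slc17a7, Stx4a, Stx6, Sv2a, Syp, Unc13a), and TATAAA in 12.4% and in Sv2b alone. The RE1 search includes the TTCAGCACC block, so these matches overlap. The 10 members not matched in the promoter table were Napg, Rims2, Snap25, Syn3, Syt13, Syt4, Syt5, Syt7, Vamp2 and Vamp3.

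The order of the members by level differed between sorted cells and whole DG. Per kilobase of exonic sequence, the highest members in untreated DG were Snap25 at 8461 normalized counts per kb, Vamp2 at 5548, Nsf at 4669, Syn1 at 4632 and Syp at 4191. In untreated NSCs the highest were Napa at 1115 per kb, Syt11 at 894, Vamp3 at 701, Stx7 at 480 and Rab3a at 456. In untreated IPCs they were Napa at 1302, Syt11 at 1102, Rab3a at 876, Cplx1 at 581 and Stx7 at 475. Of the genes that lead in DG, Snap25, Vamp2, Syn1 and Syp are neuronal SNAREs or vesicle proteins, while Nsf takes SNARE complexes apart. The NSC order is led by an NSF adaptor, a synaptotagmin and endosomal SNAREs, followed by the vesicle protein Rab3a. Rab3a and the complexin Cplx1 are also among the highest in IPCs. Snap25 was at 276 per kb in NSCs and 438 in IPCs.

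Of the neuronal SNAREs, Snap25 and Vamp2 were called lower in all 6 comparisons, and Stx1a and Vamp1 in 5 each. Snap25, the plasma membrane SNARE of the synapse (chromosome 2, 136713453 to 136782428, plus strand), had 1599, 1858 and 2167 normalized counts in the 3 untreated NSC mice and 3575, 2446 and 2898 in the IPC mice, against 53407, 64014 and 54950 in DG. The groups did not overlap, and the log2 fold change was -4.94 ± 0.16 in NSCs (SE, adjusted p = 5.1e-07, limma) and -4.29 ± 0.16 in IPCs (adjusted p = 1.3e-06, limma). Its sorted-cell counts were above 0 in every untreated library. Vamp2, the vesicle SNARE that pairs with Snap25, was at 426, 736 and 511 in untreated NSCs and 374, 955 and 655 in IPCs against 22072, 21230 and 20095 in DG, a log2 fold change of -5.28 ± 0.32 and -5.10 ± 0.32. Stx1a, the syntaxin of the presynaptic membrane, was at 252, 192 and 193 in untreated NSCs against 1542, 1689 and 1556 in DG (-2.91 ± 0.20). It was not called in TBI IPCs, at 275, 17.8 and 316 against 1175, 1119 and 1240 in DG (-3.32 ± 1.71). Vamp1, a vesicle SNARE close to Vamp2, was near the detection limit in untreated sorted cells, with a count of 0 in 6 of 9 untreated NSC libraries and 4 of 9 untreated IPC libraries and a mean of 28.3 in NSCs against 1370 in DG. In sham NSCs it was at 286 and 334, passing CLEAR in both libraries, against 1242, 1798 and 1579 in sham DG, and was not called (-2.30 ± 1.12).

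Broadly used SNAREs split. Snap23, the widely expressed relative of Snap25 (chromosome 2, 120567671 to 120601255, plus strand), had 794, 924 and 827 normalized counts in untreated NSCs and 630, 456 and 757 in IPCs, against 228, 240 and 248 in DG. All sorted mice stood above all DG mice, with log2 fold changes of 1.82 ± 0.22 in NSCs (adjusted p = 0.00018, limma) and 1.33 ± 0.22 in IPCs (adjusted p = 0.0012, limma). After TBI it was at 932, 548 and 972 in NSCs against 110, 139 and 163 in DG, and after sham surgery at 727 and 973 against 164, 151 and 182. Vamp3, a SNARE of recycling endosomes, had 1839, 2001 and 2237 in untreated NSCs and 1043, 688 and 1192 in IPCs against 417, 562 and 588 in DG (1.97 ± 0.23 and 0.88 ± 0.23). Vamp8, a SNARE of endosomes and of secretion in non-neuronal cells, had 527, 540 and 1073 in NSCs and 310, 428 and 439 in IPCs against 121, 143 and 121 in DG (2.38 ± 0.32 and 1.59 ± 0.32). The IPC value of Vamp3 lost its call without DG mouse 4 of the untreated mice.

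Stxbp3, which binds the syntaxins of surface delivery outside synapses, was higher in NSCs in all 3 conditions. It had 685, 740 and 776 in untreated NSCs against 383, 527 and 445 in DG (0.71 ± 0.24, adjusted p = 0.036, limma), a call that was lost without any of the 3 NSC mice, and without DG mouse 4 or DG mouse 6. In injury mice the log2 fold change was 1.90 ± 0.47 for TBI NSCs and 2.35 ± 0.36 for sham NSCs, called in both, and the IPCs of both conditions were called as well (1.91 ± 0.47 and 1.79 ± 0.32). Snap29, a SNARE of autophagosome fusion, was lower in 5 of the 6 comparisons, for example at 95.4, 65.2 and 108 in untreated NSCs against 221, 258 and 196 in DG (-1.34 ± 0.32). Stx6, of the trans-Golgi network, was at 1302, 1292 and 1447 in untreated NSCs against 3619, 3839 and 4038 in DG (-1.51 ± 0.31), and was not called in sham mice. Vamp4, which serves Golgi and endosome traffic, had the least stable calls, with log2 fold changes between -0.91 and -0.52 over the 6 comparisons and calls in 5 of them. Stx4a, the plasma membrane partner of Snap23, and Stx7, of late endosomes, were called in no comparison with DG. Stx7 was at 2509, 1883 and 2045 in untreated NSCs and 2340, 3171 and 2122 in DG, which overlapped.

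Of the genes that take SNARE complexes apart, Nsf, Napb and Napg were lower in sorted cells in all 6 comparisons. Nsf, the ATPase that unwinds the complexes, had 530, 522 and 437 in untreated NSCs and 548, 658 and 693 in IPCs against 37304, 40035 and 39567 in DG, log2 fold changes of -6.30 ± 0.13 and -5.95 ± 0.13 (adjusted p = 6.6e-08 and 1e-07, limma). Napb, the brain-enriched adaptor beta-SNAP, was at 324, 523 and 291 in untreated NSCs against 14647, 16863 and 13183 in DG (-5.33 ± 0.22). Napg was at 309, 412 and 376 against 3518, 4888 and 3302 (-3.40 ± 0.21). Napa, the general adaptor alpha-SNAP, differed less, with 4527, 4110 and 4023 in untreated NSCs and 5452, 4277 and 5058 in IPCs against 14041, 16182 and 15095 in DG (-1.84 ± 0.11 and -1.62 ± 0.11), and was called in neither injury condition. In TBI mice Napa was at 4861, 6061 and 5323 in NSCs and 4895, 4509 and 3659 in DG, which overlapped.

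Among the synaptotagmins, 7 of 8 were lower in both untreated populations than in DG. Syt1, the main calcium sensor of fast release, had 126, 99.2 and 90.1 in untreated NSCs and 114, 105 and 20.9 in IPCs against 21062, 23550 and 18808 in DG, log2 fold changes of -7.65 ± 0.56 and -8.35 ± 0.56. Syt13, a synaptotagmin that does not bind calcium, was at 0.566, 0.947 and 18.4 in untreated NSCs against 7142, 8629 and 7209 in DG (-10.94 ± 1.43), and its counts were 0 in 2 of 9 NSC and 6 of 9 IPC libraries. Syt4 and Syt7, found on dense-core and other regulated vesicles, were lower in all 6 comparisons, with untreated NSC means of 17.1 and 36.9 against DG means of 1953 and 475. Syt3 was called lower in both untreated and both sham comparisons and in neither TBI comparison, where its NSC counts were 455, 0.727 and 3.65 against 757, 802 and 573 in DG. Syt2, a fast sensor best known from brainstem and spinal synapses, was low everywhere, with a mean of 48.4 in untreated NSCs and 90.2 in DG, and was called in no comparison.

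Syt11, a synaptotagmin of endocytosis and membrane repair that does not bind calcium, was the synaptotagmin with the most reads in sorted cells. It had 5365, 3965 and 4625 in untreated NSCs and 6313, 4865 and 6023 in IPCs against 18598, 17254 and 17632 in DG (-1.95 ± 0.13 and -1.65 ± 0.13). After TBI it was at 15191, 12556 and 14114 in NSCs against 10881, 10793 and 11019 in DG, and all NSC mice stood above all DG mice (0.35 ± 0.10, adjusted p = 0.019, limma). That call was lost without any of the 3 TBI DG mice. In sham mice NSC values of 13584 and 9848 overlapped DG values of 10567, 12767 and 10210.

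Both complexins were lower in all 6 comparisons. Cplx1 had 1242, 979 and 559 in untreated NSCs and 1529, 741 and 1544 in IPCs against 7969, 8393 and 7372 in DG (-3.17 ± 0.35 and -2.71 ± 0.35). Cplx2, the complexin of most excitatory forebrain neurons, had 567, 365 and 170 in untreated NSCs against 9323, 5434 and 7889 in DG (-4.49 ± 0.48), and in sham mice 477 and 358 against 37496, 37969 and 40921 (-6.55 ± 0.19). Its DG counts lay far apart between the experiments, which were normalized in separate tables.

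The vesicle proteins were lower in sorted cells except for Syn3. Syp, the abundant vesicle membrane protein synaptophysin, had 656, 640 and 667 in untreated NSCs and 1500, 935 and 987 in IPCs against 21884, 22071 and 21569 in DG (-5.06 ± 0.17 and -4.29 ± 0.17). Syn1, the synapsin that tethers vesicles in the reserve pool (chromosome X, 20860511 to 20921004, minus strand, the gene whose promoter carries the RE1-like element shown above), had 128, 182 and 1.5 in untreated NSCs and 201, 448 and 85.8 in IPCs against 15589, 14510 and 15742 in DG. The NSC mice differed widely among themselves, and the log2 fold change was -8.62 ± 1.44 in NSCs and -6.26 ± 1.44 in IPCs. Syn2 was at 751, 327 and 75.8 in untreated NSCs against 2056, 1364 and 1782 in DG (-2.68 ± 0.70). Sv2b, a vesicle glycoprotein of excitatory terminals, was almost undetected in sorted cells, with a count of 0 in 6 of 9 untreated NSC and 6 of 9 untreated IPC libraries and mouse values of 0, 1.24 and 0.996 in NSCs against 6530, 7025 and 5290 in DG (-11.89 ± 0.64). Its widely expressed relative Sv2a was at 36.4, 73.8 and 43.1 against 6644, 5597 and 6227 (-6.95 ± 0.35). Rab3a, the vesicle GTPase, kept more of its level, at 1106, 1024 and 912 in untreated NSCs and 2295, 1757 and 1795 in IPCs against 6001, 5550 and 4995 in DG (-2.44 ± 0.14 and -1.51 ± 0.14).

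The active-zone genes were low in sorted cells, and 4 or 5 of the 5 were called lower in each comparison with DG. Unc13a, the priming factor Munc13-1, had 136, 157 and 121 in untreated NSCs and 134, 340 and 182 in IPCs against 3755, 3142 and 4564 in DG (-4.77 ± 0.34 and -4.22 ± 0.34). Bsn, the scaffold Bassoon, had 16, 91.8 and 15.4 in untreated NSCs and 140, 186 and 131 in IPCs against 1036, 696 and 1225 in DG (-5.02 ± 0.65 and -2.66 ± 0.65). Pclo, the scaffold Piccolo, had means of 140 in NSCs and 159 in IPCs against 1460 in DG (-3.39 ± 0.48 and -3.29 ± 0.48). Rims1, which links vesicles to calcium channels, was at 11, 8.62 and 40.1 in untreated NSCs against 121, 148 and 130 in DG, while IPC values of 26.2, 158 and 44.3 overlapped those of DG. Rims2 was called lower in NSCs in all 3 conditions, and in IPCs in untreated mice only, where 334, 216 and 229 stood against 694, 583 and 608 in DG (-1.30 ± 0.40), a call that was lost without IPC mouse 2 or 3 and without any of the 3 DG mice.

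Both transporters that define transmitter identity were called lower in all 6 comparisons. Slc17a7 (VGLUT1), which loads glutamate in granule cells and other excitatory neurons, had 0, 0.652 and 6.56 in untreated NSCs and 6.48, 236 and 1.76 in IPCs against 9987, 3385 and 15374 in DG. IPC mouse 2 carried nearly all the IPC counts of this gene, with 703 in its highest technical replicate. Slc32a1 (VGAT), which loads GABA and glycine, had a count of 0 in all 9 untreated NSC libraries, in all injury sorted libraries and in 8 of 9 untreated IPC libraries. Set against a floor of 3 reads over the group, DG was at least 116-fold higher than untreated NSCs, at least 1038-fold higher than TBI NSCs and at least 619.5-fold higher than sham NSCs, and at least 1190-fold and 859-fold higher than TBI and sham IPCs. In untreated IPCs the values were 0, 0 and 22.5 against 50.6, 22.3 and 23.1 in DG, which overlapped, and the call for this gene was lost under 11 alternatives. The untreated NSC call for Slc32a1 was lost under edgeR and under DESeq2. Untreated DG itself held only 81 reads of this gene over all its mice, a mean of 1.83 CPM.

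**Figure D2:**
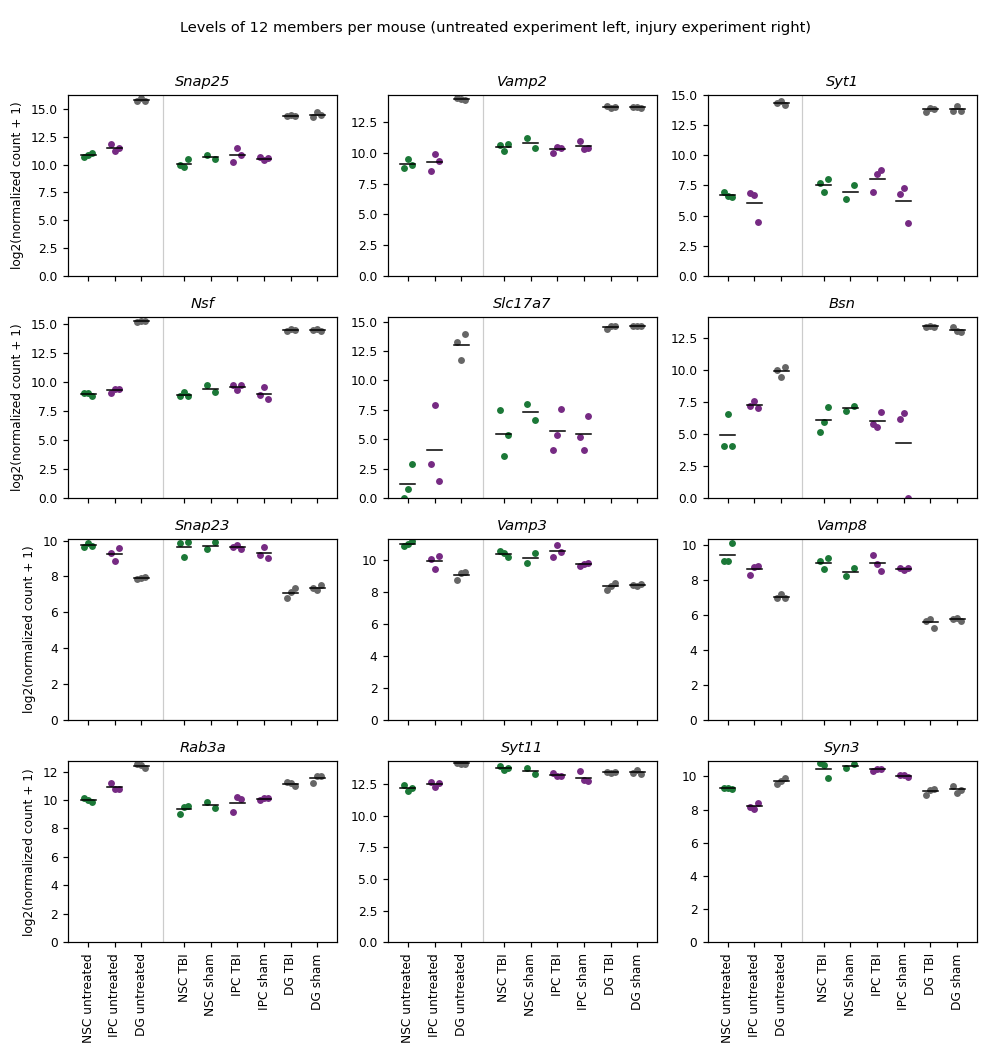
Normalized counts of Snap25, Vamp2, Syt1, Nsf, Slc17a7, Bsn, Snap23, Vamp3, Vamp8, Rab3a, Syt11 and Syn3, chosen from the members. The scale is log2(normalized count + 1), with 1 point per mouse and a bar at the mean of each group. Snap25, Nsf, Syt1 and Slc17a7 have sorted-cell points far below those of whole DG, and Snap23, Vamp3 and Vamp8 have them above.

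The injury experiment gave the same sides for the main synaptic genes, given here as normalized counts per mouse with the limma log2 fold change ± SE over DG. Snap25 had 1010, 882 and 1404 in TBI NSCs and 1178, 2876 and 1886 in TBI IPCs against 21064, 21866 and 20754 in TBI DG (-4.30 ± 0.30 and -3.52 ± 0.30), and in sham mice 1879 and 1474 in NSCs and 1591, 1345 and 1498 in IPCs against 19932, 26869 and 23038 in DG (-3.79 ± 0.18 and -3.97 ± 0.16). Syt1 was at 202, 122 and 257 in TBI NSCs against 12646, 15882 and 15125 in TBI DG (-6.28 ± 0.46), and at 80.3 and 181 in sham NSCs against 13356, 17352 and 13342 in sham DG (-6.90 ± 0.83). In all of these the sorted mice lay below every DG mouse, and each difference was called. Syp, an abundant membrane protein of the vesicle, was at 750, 666 and 665 in TBI NSCs and 527, 234 and 681 in TBI IPCs against 22475, 19462 and 19661 in TBI DG (-4.88 ± 0.34 and -5.54 ± 0.34). Slc17a7 was above 0 in every injury sorted library, with 177, 10.9 and 40.2 in TBI NSCs against 21219, 25142 and 24893 in TBI DG and 251 and 98.2 in sham NSCs against 25894, 24793 and 24724 in sham DG. Slc17a7, which loads glutamate into vesicles, and Syp were also below every DG mouse in these sorted cells. Bsn had 34.8, 58.9 and 137 in TBI NSCs against 10361, 11259 and 10500 in TBI DG (-7.33 ± 0.51). The summed mature neuron markers of the same mice were at 6287 to 7039 in TBI sorted cells against 128170 to 136704 in TBI DG, and at 6906 to 9210 in sham sorted cells against 123132 to 142714 in sham DG.

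Detection was less complete in untreated sorted cells than in untreated whole DG. Under the authors' CLEAR filter, 19 members had a value in every untreated NSC library and 13 in every untreated IPC library, against all 41 in untreated DG. The numbers were 25 in TBI NSCs, 25 in TBI IPCs, 30 in sham NSCs and 29 in sham IPCs. Snap25, Vamp2 and Nsf, all lower than in DG, passed in every untreated IPC library. Stx1a, Snap23, Vamp3, Vamp4, Napb and Napg failed there only in technical replicate 2 of IPC mouse 2. That library had 6110 genes passing, so it lowers the untreated IPC number. In untreated mice 18 members were at a count of 0 in some NSC library and 13 in some IPC library. When the test was restricted to genes that passed CLEAR in all libraries, 12 members were left in untreated mice, of which 2 were higher and 8 lower in NSCs than in DG, against 35.2% and 26.7% of the 4055 genes so tested, and 1 higher and 8 lower in IPCs, against 35.3% and 23.9%.

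Syn3 was called on opposite sides of whole DG in the experiments. This synapsin of developing neurons (chromosome 10, 86055125 to 86498896, minus strand) had 639, 644 and 601 normalized counts in untreated NSCs and 286, 266 and 330 in untreated IPCs, against 751, 853 and 961 in DG. All sorted mice stood below all DG mice, and the difference was called in IPCs (-1.54 ± 0.18, adjusted p = 0.00016, limma) and not in NSCs (-0.44 ± 0.18, adjusted p = 0.067, limma). The NSC value was 0.27 with libraries rescaled to one total and 0.02 by edgeR, both uncalled, so its direction in untreated NSCs is not settled. After TBI the values were 1760, 1628 and 969 in NSCs and 1287, 1425 and 1399 in IPCs against 480, 591 and 601 in DG, and after sham surgery 1466 and 1686 in NSCs and 1105, 1068 and 1012 in IPCs against 679, 521 and 588 in DG. Here all sorted mice stood above all DG mice, with log2 fold changes of 1.34 ± 0.24 and 1.30 ± 0.24 after TBI and 1.41 ± 0.19 and 0.84 ± 0.17 after sham surgery, each called. The untreated and injury tables were normalized separately, and the difference between the experiments was not tested. The summed level of 3 astrocyte markers lay on the same sides of DG, at 15597 to 34499 in untreated NSCs and 17696 to 31640 in untreated IPCs against 38511 to 50960 in untreated DG, at 160817 to 223621 in the sorted cells of TBI mice against 14886 to 16013 in TBI DG, and at 89176 to 203848 in those of sham mice against 14087 to 17539 in sham DG. Of the 3, 2 were called lower in untreated NSCs and 3 in untreated IPCs, and 2 higher in each injury sorted group. The 8 radial glia-like NSC markers summed to 12808 to 33818.5 in untreated sorted cells against 38124 to 38646 in DG. In sham mice the sums were 57827 to 123084 against 23446 to 33359, and in TBI mice 85309 to 123697 against 26711 to 41217. As single genes, 4 of these 8 were called higher and 2 lower than DG in both untreated populations. The part of both lists in the Syn3 values was not tested.

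The gene Timp3, an inhibitor of matrix metalloproteinases (chromosome 10, 86300372 to 86349506, plus strand), lies within Syn3 on the opposite strand. Reads were counted without strand, and 14.1% of the exonic bases of Syn3 are shared with Timp3. That gene, named after its values were seen, averaged 1515 in untreated NSCs and 734 in untreated IPCs against 1704 in untreated DG, 5447 in TBI NSCs and 4393 in TBI IPCs against 1050 in TBI DG, and 6063 in sham NSCs and 3264 in sham IPCs against 971 in sham DG. By group means it was thus below its DG level in the same conditions as Syn3 and above it in the same conditions as Syn3. In untreated NSCs, however, Timp3 values of 1604, 1341 and 1600 overlapped DG values of 1550, 1871 and 1691. The part of Timp3 in the Syn3 values was not tested. Other members with over 10% of exonic bases shared with another gene were Slc32a1 (24.9%), Syp (16.8%) and Syt4 (14.5%).

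**Figure D3:**
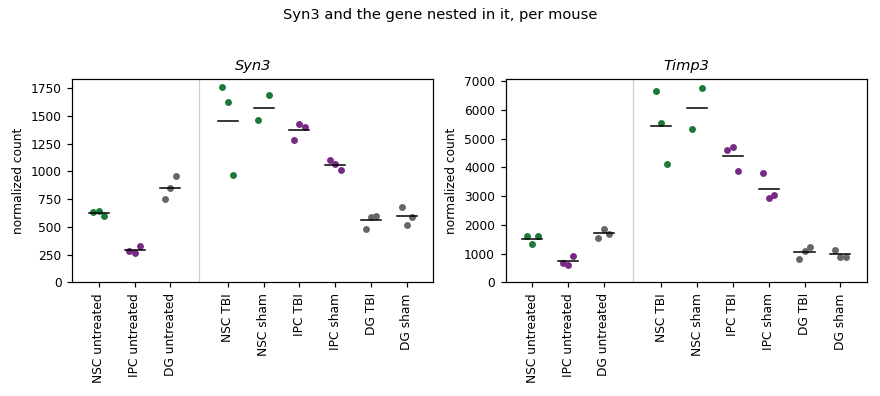
Normalized counts of Syn3 and of Timp3, the gene within it on the other strand, 1 point per mouse and bars at the group means. Both lie below or near whole DG in untreated NSCs and IPCs and above whole DG in the sorted cells of TBI and sham mice.

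Genes of the presynapse outside the 41, taken as 4 lists of 78 genes, were also called lower more often than higher, with 73 tested in untreated mice and 75 in injury mice. In untreated NSCs 7 were higher and 52 lower than in DG, and in untreated IPCs 5 were higher and 53 lower. In TBI mice, NSCs had 8 higher and 42 lower and IPCs 10 higher and 50 lower. In sham mice, NSCs had 5 higher and 43 lower and IPCs 7 higher and 48 lower. Of all genes, 16.1% were higher and 33.3% lower in untreated NSCs, and 15% and 33.9% in untreated IPCs. These shares were 19.7% and 26.1% in TBI NSCs and 19.8% and 30.1% in TBI IPCs. They were 17.3% and 25.2% in sham NSCs and 18.9% and 29.2% in sham IPCs. The median log2 fold change of these presynaptic genes in untreated NSCs was -3.22, beside -3.40 for the 41 members and -0.64 for all genes. Of the SNARE and SM protein list, 4 of 21 were higher and 9 lower in untreated NSCs, with a median of -0.81, close to the -0.64 of all genes, of which 16.1% were higher and 33.3% lower. Those higher included Vamp5 (3.59), a SNARE of muscle and endothelium, Bet1 (1.34), of the Golgi, and Stx8 (0.71), of endosomes, and those lower included Stxbp6 (-4.39).

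Of the list of calcium sensors and priming factors, none of 16 was higher and 12 were lower in untreated NSCs, led by Rph3a (rabphilin, -10.67), Syt10 (-8.06) and Syt17 (-6.97). Of the other vesicle proteins, 3 of 19 were higher and 15 lower. Those higher were Sypl (2.22) and Syngr2 (2.01), the non-neuronal relatives of synaptophysin and synaptogyrin, and Slc17a6 (VGLUT2, 1.44), and the lowest were Rab27b (-6.55), Sncb (beta-synuclein, -5.71) and Sv2c (-5.69). Of the list of active zone and recycling proteins, none of 17 was higher and 16 were lower, led by Dnm1 (the neuronal dynamin, -9.96), Snap91 (a clathrin adaptor, -7.92) and Ppfia3 (liprin-alpha-3, -7.03).

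NSCs and IPCs differed in few members. In untreated mice 1 was higher and 2 lower in NSCs than in IPCs, against a background of 1.24% of genes higher and 0.686% lower. Syn3 was higher in NSCs (639, 644 and 601 against 286, 266 and 330, log2 fold change 1.1 ± 0.18, adjusted p = 0.021, limma). Syt5, a synaptotagmin of dense-core vesicles (chromosome 7, 4539765 to 4547541, minus strand), was lower, at 285, 233 and 213 in NSCs against 532, 592 and 497 in IPCs (-1.15 ± 0.16, adjusted p = 0.012, limma). Rab3a (chromosome 8, 70754679 to 70758677, plus strand) was also lower, at 1106, 1024 and 912 against 2295, 1757 and 1795 (-0.94 ± 0.14, adjusted p = 0.017, limma). In all 3 genes the 3 NSC mice lay outside the range of the 3 IPC mice. NSCs and IPCs came from the same mice, and with mouse as a block the adjusted p was 0.321 for each of the 3, with no member and no other gene called. Syn3 also lost its call without NSC mouse 2 of the untreated mice.

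Other members were separated between untreated NSCs and IPCs without passing the adjusted threshold. Vamp3 was at 1839, 2001 and 2237 in NSCs against 1043, 688 and 1192 in IPCs (1.09 ± 0.23, adjusted p = 0.059, limma), and Syp at 656, 640 and 667 against 1500, 935 and 987 (-0.77 ± 0.17, adjusted p = 0.064, limma). Snap25 had a log2 difference of -0.66 ± 0.16 and Bsn of -2.36 ± 0.65. In all, 14 members had a positive and 27 a negative difference, with a median of -0.19 beside 0.00 over all genes. Over the same mice the summed markers of immature neurons were at 25320 to 43608 in NSCs against 58668 to 73255 in IPCs, and 3 of the 7 were called lower in NSCs. Markers of other cell types also lay apart, with no overlap of their sums. Endothelial markers summed to 42751 to 53559 in NSCs against 11862 to 25719 in IPCs (1 of 5 called higher), microglia markers to 1026 to 2901 against 58.1 to 814 (1 of 4 called higher) and pericyte markers to 11125 to 13386 against 24073 to 25527 (2 of 3 called lower). The part of these in the members' differences was not tested.

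In injury mice no member was called between NSCs and IPCs, where 0.437% of genes were higher and 0.161% lower in sham mice and 0.334% and 0.0557% in TBI mice. At an unadjusted p under 0.05, 5 members in TBI mice and 10 in sham mice differed by limma, beside 11.1% and 9.47% of all genes. edgeR called none in either, and DESeq2 called 3 in TBI mice and 2 in sham mice. Over all genes DESeq2 called 488 higher and 217 lower of 17946 in TBI mice, and 366 and 361 of 18059 in sham mice. The log2 differences for the 3 genes called in untreated mice were 0.04 for Syn3, 0.17 for Syt5 and -0.44 for Rab3a after TBI, and 0.57, -0.67 and -0.43 after sham surgery. Among the other presynaptic genes, Unc13d (4.09) was higher and Syngr3 (-1.10) and Dnajc5 (-0.88) lower in untreated NSCs, and Erc2 (3.95) was higher in sham NSCs.

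**Figure D4:**
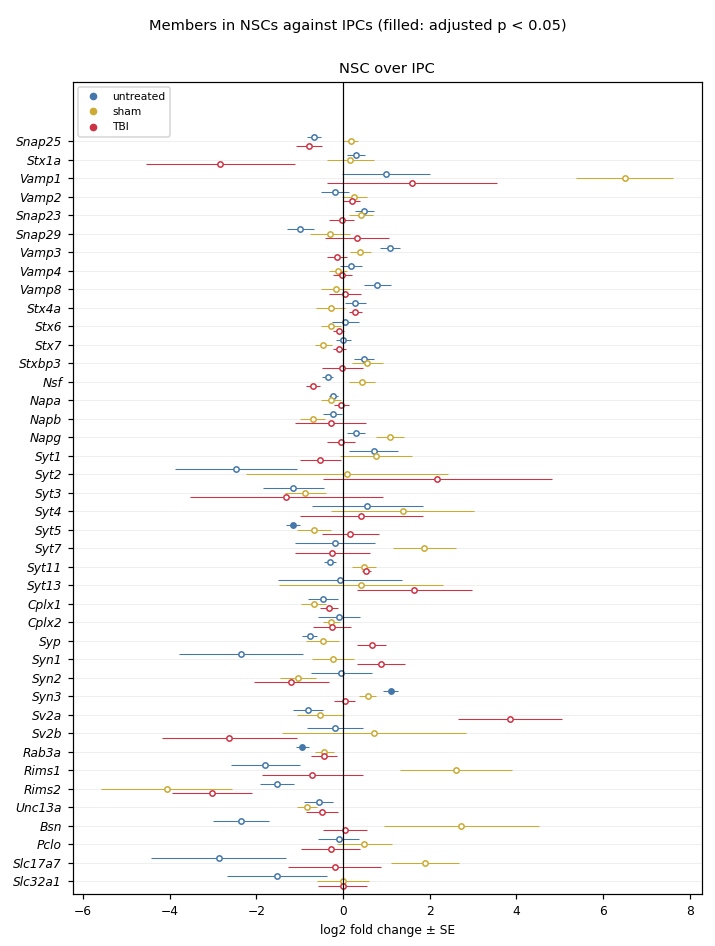
Log2 fold change of each member in NSCs over IPCs in untreated, sham and TBI mice, with error bars of 1 SE and filled symbols for an adjusted p under 0.05. Filled symbols are seen in untreated mice only, for Syn3 (1.1), Syt5 (-1.15) and Rab3a (-0.94).

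No member passed the adjusted threshold between TBI and sham. NSCs had 39 tested members, IPCs 38 and whole DG 41, and none was called, as was true of all genes (background 0% in each). At an unadjusted p under 0.05 limma gave 1 member in NSCs, 3 in IPCs and 9 in DG, beside 4.3%, 4.43% and 19.9% of all genes. edgeR called no member in any population, and DESeq2 called 1, Vamp1 in DG, where it called 418 higher and 264 lower of all 17434 genes. The median log2 fold change of the members was -0.09 in NSCs, 0.23 in IPCs and -0.08 in DG. In the direct test of the NSC response against the IPC response, none of 40 members was called either, with 1 (Nsf, -1.14 ± 0.49) at an unadjusted p under 0.05 beside 3.28% of all genes, and edgeR and DESeq2 called none.

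The members with the smallest p-values in DG lay in both directions. Vamp1 was at 1051, 977 and 1003 after TBI against 1242, 1798 and 1579 after sham surgery, with no overlap (-0.59 ± 0.14, adjusted p = 0.13, limma). Syt3 was at 757, 802 and 573 against 829, 1115 and 1113 (-0.52 ± 0.17, adjusted p = 0.16, limma). Stx6 was at 2210, 2570 and 2540 against 2197, 1453 and 1681 (0.48 ± 0.15, adjusted p = 0.16, limma), and Stxbp3 at 272, 274 and 350 against 252, 182 and 230 (0.43 ± 0.17). The other members at an unadjusted p under 0.05 were Stx1a (-0.30), Sv2a (-0.26), Rab3a (-0.38), Syt7 (-0.41) and Stx4a (0.41). Without DG sham mouse 10, 3 members were called higher (Stx6, Stx4a, Bsn) and 3 lower (Vamp1, Syt3, Rab3a), together with 807 higher and 527 lower genes overall.

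In sorted cells the spread between mice was wide relative to the differences. Stx4a was at 1034, 1239 and 1066 in NSCs after TBI against 488 and 609 after sham surgery, with no overlap (1.02 ± 0.30, adjusted p = 0.94, limma), and in IPCs at 951, 874 and 901 against 452, 828 and 786. Vamp3 was at 1148, 1895 and 1415 in TBI IPCs against 760, 862 and 867 in sham IPCs (0.81 ± 0.28), and Cplx1 at 630, 380 and 492 against 901, 1122 and 705 (-0.86 ± 0.34). Sv2a was at 38.3, 1.55 and 0 in TBI IPCs against 99.9, 86.7 and 62.9 in sham IPCs (-4.15 ± 1.59). The adjusted p of each of these 3 IPC genes was 0.92 (limma). Among the other presynaptic genes, none was called between TBI and sham in any population.

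**Figure D5:**
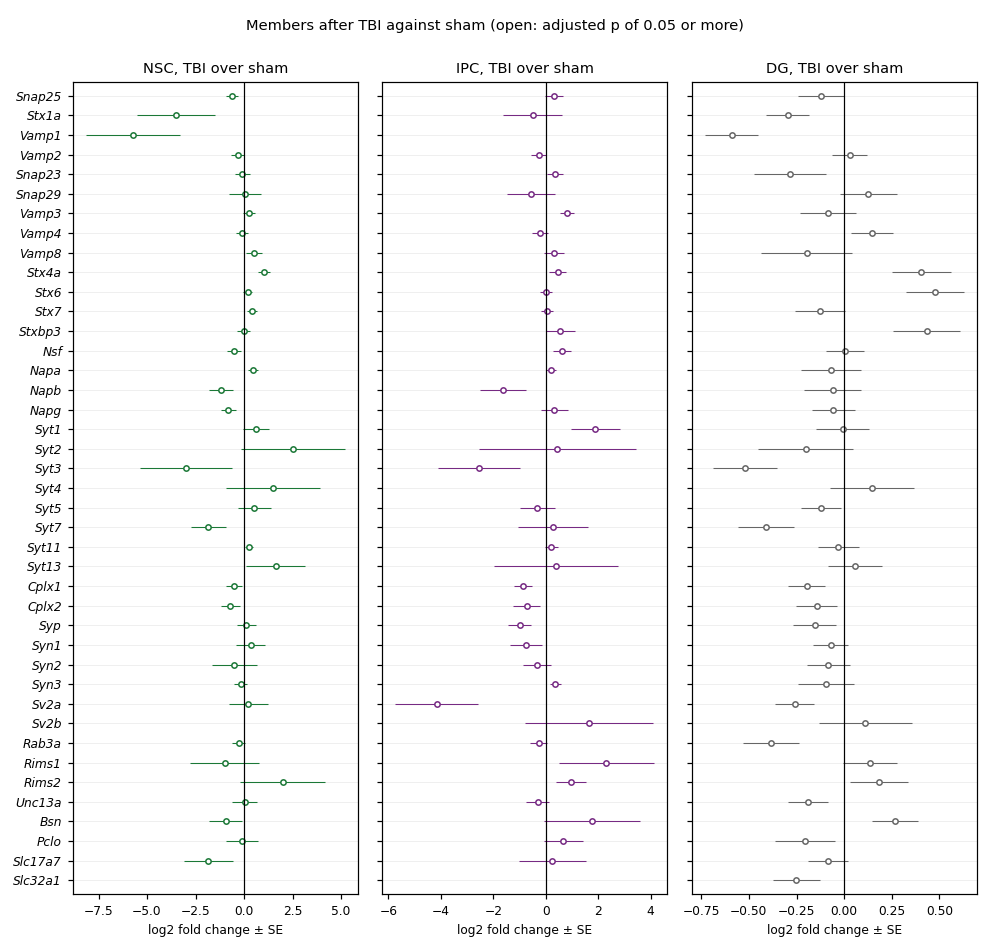
Log2 fold change of each tested member in TBI over sham in NSCs, IPCs and whole DG, with error bars of 1 SE and a separate range for each panel. All symbols are open, as no adjusted p was under 0.05, and the error bars in sorted cells are wider than those in whole DG, where values lie between -0.59 and 0.48.

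Whole DG gave different levels of most members in the 2 experiments. On the CPM scale, Slc32a1 averaged 61.8 in sham DG and 1.83 in untreated DG, Syt7 482 and 27.2, Bsn 586 and 56.4, Rims1 77.2 and 7.62, Syn2 801 and 99.3, and Cplx2 2544 and 432. These 6 had the highest ratios of sham to untreated DG. In the other direction, Snap25 averaged 1529 in sham DG and 3292 in untreated DG, and Napa 300 and 865, the lowest ratios. Ranges over mice overlapped for Syt2, Vamp1, Stx1a, Rims2, Cplx1, Vamp4, Syt4, Syn3, Syt1, Napg and Sv2b, and for no other member. The share of all genes without overlap is not given here. Surgery, library batch, table and, by the study's text, genotype were confounded here and cannot be told apart, and no test was made. The column headings carry a different code for the whole DG libraries of the injury experiment than for all other libraries, and the sources used here do not say what it marks. A fold between sorted cells and DG therefore depends on which whole DG it was measured against, as for Syt7, which was at 36.9 in untreated NSCs against 475 in untreated DG and at 133 in sham NSCs against 7350 in sham DG.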

How the data were processed

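The authors trimmed reads, aligned them with HISAT2 2.0.6 to the mouse genome after removing ribosomal, mitochondrial and PhiX reads, and counted them per GENCODE gene with featureCounts without regard to strand. They divided the counts by DESeq2 size factors, and these normalized counts were deposited, so the signal values are reads per gene on a common scale; every value was a whole number of reads (100% within 0.05) once multiplied by the recovered size factor. The deposited tables also give the values after the CLEAR filter, used here for detection and for 1 alternative that restricted the tests. In the 6 injury whole DG libraries those columns are not filtered: all 49922 genes carry a value there, with 23040 to 24008 above 0. The untreated and injury tables were normalized separately. The submitters' processing notes name CASAVA 1.8.2 and a human build for these mouse samples; coordinates here are GENCODE M21 and RefSeq on GRCm38. Of 50600 rows, 678 with repeated symbols were left out, and 1 column that matched no sample was not used. The labels list 45 sequenced libraries and the tables hold 38.

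Technical replicates were averaged per mouse. Genes with a mean of at least 10 over the mice of a fit were tested by limma 3.58.1 with trend (R 4.3.3) on log2(normalized count + 1), two-sided, with Benjamini-Hochberg adjustment over all genes tested and a threshold of 0.05. The 3 groups of a condition shared 1 spread, and TBI was compared with sham within each population. edgeR 4.0.16 (quasi-likelihood) and DESeq2 1.42.0 on the recovered reads were alternatives, as were other pseudocounts and filters, no trend, rescaling to one total, a fold threshold, mouse as a block and each mouse left out. Scripts were tested on simulated data. NSCs and IPCs of a mouse carry its number in the labels; deviations of same-mouse pairs from their group means correlated at 0.187, 0.12 and 0.109 in untreated mice, 0.113 and 0.113 in sham mice and 0.104, 0.0891 and 0.0723 in TBI mice. Intervals are SEs of the fit or SDs over mice, and the floor of 3 reads for a count of 0 covers counting error only.

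All 41 members could be named; of other presynaptic lists, up to 3 genes called in each direction with the largest change, except for some results of that rule that are not reported here. The members and all lists were chosen with earlier results of these data known.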

Additional observations from a re-analysis of the deposited data

Results flagged for a closer look

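These patterns stood out because all mice of a population lay above the group it was set against in some condition and below it in another. None of these differences between conditions was tested, and the untreated and injury tables were normalized separately. Syn3 in NSCs over whole DG had log2 fold changes of -0.44 in untreated, 1.41 in sham and 1.34 in TBI mice, and in IPCs over whole DG of -1.54, 0.84 and 1.30. Syt11 in NSCs over whole DG was at -1.95 in untreated, 0.06 in sham and 0.35 in TBI mice. Napa in IPCs over whole DG was at -1.62 in untreated, 0.08 in sham and 0.36 in TBI mice. Stx4a in NSCs over whole DG was at 0.44 in untreated, -0.47 in sham and 0.15 in TBI mice, and none of these was called. Bsn in NSCs over IPCs was at -2.36 in untreated, 2.74 in sham and 0.04 in TBI mice, also uncalled, with counts of 110 and 148 in sham NSCs against 71.9, 97.6 and 0 in sham IPCs.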

How the results depend on the processing

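Of 211 called differences of single members, 176 kept their call in every alternative that tested them and 35 lost it in at least 1. DESeq2 did not call 13 of the 211, edgeR 12, a fold threshold of 1 on the log2 scale 12, rescaling 10, no trend 7, no filter on the mean 4, and each other pseudocount 1; 14 were lost with some mouse left out. Restricting the test to genes that passed CLEAR in all libraries left 12 members in untreated mice, of which 2 were higher and 8 lower in NSCs than in DG, 1 higher and 8 lower in IPCs than in DG, and 0 higher in NSCs than in IPCs; the members lower than in DG numbered 15 each in sham NSCs and IPCs and 14 each in TBI NSCs and IPCs, since fewer genes were tested. Rescaling gave 6 members higher in untreated IPCs than in DG and reversed Stx7 to 0.47 in both NSCs and IPCs (-0.23 and -0.24 as deposited). Between untreated NSCs and IPCs, no trend gave 0 higher and 1 lower, that fold threshold gave 1 lower, DESeq2 gave 2 higher and 5 lower, and leaving out technical replicate 2 of IPC mouse 2 gave 2 higher and 5 lower. With mouse as a replicate block, 0 members were higher and 0 lower, and 0 genes in any of the 3 conditions were called, against 218 higher and 121 lower in untreated mice without it; the block changed no call of the difference between the NSC and IPC responses. Between sham NSCs and IPCs, a pseudocount of 10 gave 1 member higher, and DESeq2 gave 1 higher and 1 lower. Between TBI NSCs and IPCs, DESeq2 gave 1 higher and 2 lower. DESeq2 also called 1 member lower in TBI than in sham DG. The causes of these changes were not tested, other than the smaller number of genes under the CLEAR restriction.

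With each mouse left out in turn, members higher in NSCs than in IPCs ranged from 0 to 2 and members lower from 1 to 4 in untreated mice, from 0 to 2 and 0 to 3 in sham mice, and from 0 to 2 and 0 to 1 in TBI mice; in TBI over sham DG they ranged from 0 to 3 in each direction, the 3 both arising without DG sham mouse 10. Sv2b in sham NSCs, Bsn in sham NSCs, Stx1a and Snap29 in TBI NSCs and Snap29 in TBI IPCs were among the calls lost in this way. Over all genes, edgeR called 4037 higher and 3738 lower in untreated NSCs and 3972 and 3643 in untreated IPCs over DG. It called 176 higher and 98 lower between untreated NSCs and IPCs, 1 and 0 in sham mice and 3 and 0 in TBI mice, where limma called 79 and 29, and 60 and 10. DESeq2 called 213 higher and 41 lower genes in TBI over sham NSCs, 26 and 79 in IPCs and 418 and 264 in DG, where limma in its main setting and edgeR called 0. Without the trend, limma called 10 higher and 19 lower in NSCs, 12 and 26 in IPCs and 0 in DG. With 1 spread shared by all 6 injury groups, it called 15 and 17 in NSCs, 20 and 57 in IPCs and 1 and 0 in DG. Between untreated NSCs and IPCs DESeq2 called 859 higher and 668 lower genes. Leaving out technical replicate 2 of IPC mouse 2 gave 426 and 197 by limma.

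Groups of 2 or 3 mice and the wide spread in sorted cells limit the injury comparisons, in which 5 members were at 0 in some TBI NSC library, 5 in some TBI IPC library, 4 in some sham NSC library and 8 in some sham IPC library. Differences of the size of the SEs given for sorted cells were not detectable at this depth and number of mice.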
